A study of Mus musculus with 12 samples.

Results

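The RNA of 9 genes of store-operated calcium entry and of calcium release through IP3 receptors was examined in isolated fibers of the mouse extensor digitorum longus (EDL), a fast-twitch hindlimb muscle. The genes were taken by their symbols and are *Stim1*, *Stim2*, *Orai1*, *Orai2*, *Orai3*, *Itpr1*, *Itpr2*, *Itpr3* and *Fkbp1a*. They are 9 of the 55367 distinct symbols in the deposited data, and all 9 were among the 14429 genes tested. The 12 samples came from C57BL/6J mice in 3 groups of 4. Young fibers were from mice of 3–4 months, whereas both aged groups, Fluo-4 normal and Fluo-4 abnormal, were from mice of 26–28 months. Fluo-4 is a fluorescent calcium indicator, and the aged fibers were sorted by hand under a fluorescence stereomicroscope by whether their staining was aberrant. The aberrant staining was described by the study in aged males and followed the sarcoplasmic reticulum (SR), the calcium store of muscle, which formed tubular aggregate-like structures in these fibers. All 3 groups were untreated and carried no engineered allele, and the fibers were freed with collagenase. The number of fibers and mice behind each sample is not given in the sources used here, so the p-values measure the spread between samples, which may in part be technical.

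Muscle contracts when ryanodine receptors release calcium from the SR, and store-operated entry refills that store from outside the fiber. STIM proteins sit in the SR membrane and sense a falling calcium level in its lumen, after which they bind and open ORAI channels in the surface membrane and its transverse tubules. IP3 receptors form a second release channel of the endoplasmic reticulum, opened by the messenger IP3 that phospholipase C makes, and FKBP12, the product of *Fkbp1a*, binds the ryanodine receptor and stabilises its closed state. Mutations that keep human STIM1 or ORAI1 active cause tubular aggregate myopathy, in which SR tubules pack into aggregates.

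Of these genes, *Stim2* and *Itpr1* rose in the Fluo-4 abnormal fibers against both other groups, to 2.10-fold and 2.19-fold the mean of the Fluo-4 normal fibers. *Stim1*, *Orai1* and *Orai3* did not pass the test in any comparison. In 1 of 26 alternatives, which treated same-numbered samples as paired, *Orai1* passed between the aged groups. *Fkbp1a* passed between the 2 aged groups by a small margin that was lost under many other settings. No gene of the 9 passed between Fluo-4 normal and Young fibers.

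The promoters of the STIM genes are shown because only 1 of these paralogues passed the test. The windows are the 250 bases before the start of each gene in RefSeq on the GRCm38.p6 build, plus strand, at chr7:102267569-102267818 for *Stim1* and chr5:53998273-53998522 for *Stim2*. Capitals mark matches to the E-box CANNTG, searched on both strands, a motif of the kind bound by muscle-forming factors such as MYOD.
Stim1: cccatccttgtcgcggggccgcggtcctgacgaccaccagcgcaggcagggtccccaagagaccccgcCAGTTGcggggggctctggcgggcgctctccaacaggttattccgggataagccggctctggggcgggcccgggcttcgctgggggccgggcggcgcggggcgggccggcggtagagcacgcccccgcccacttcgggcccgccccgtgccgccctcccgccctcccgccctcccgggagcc
Stim2: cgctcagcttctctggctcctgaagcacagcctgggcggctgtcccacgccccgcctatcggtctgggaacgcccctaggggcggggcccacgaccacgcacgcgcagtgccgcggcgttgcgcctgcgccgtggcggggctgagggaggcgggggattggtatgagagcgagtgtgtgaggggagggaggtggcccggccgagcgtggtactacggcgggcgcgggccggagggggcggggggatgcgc
Over the full window of 300 bases, which runs 50 bases past the start, *Stim1* held 1 match and *Stim2* held 0, whereas 72.3% of 32544 mouse promoters of this length held at least 1. Both windows were rich in CpG, with 38 in *Stim1* and 39 in *Stim2* against a median of 7 over all promoters. Their GC content was 78.7% and 76.7%, against a median of 53.0%. Of the 9 genes, 8 had an entry in the promoter table and *Itpr1* did not. A match or its absence in such a window is a description of the letters only.

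The levels are in TPM, a unit of transcript abundance that corrects for transcript length and sums to 1000000 in each sample, so that genes can be set side by side. The read depth behind the values is unknown, and the spread between the 4 samples of a group is the error given. In Young fibers *Fkbp1a* was highest at 127 ± 7.27 TPM (SD, n = 4 here and below), followed by *Orai1* at 52.3 ± 7.97 TPM and *Stim1* at 33.6 ± 4.19 TPM. *Stim2* at 9.83 ± 2.62 TPM and *Orai3* at 8.64 ± 0.959 TPM came next, and the ranges of these neighbours overlapped. *Itpr1* was at 4.73 ± 1.11 TPM and *Itpr2* at 0.967 ± 0.512 TPM, while *Orai2* and *Itpr3* stayed under 0.3 TPM in every Young sample. Fluo-4 normal fibers had the same order of means, again with *Stim2* and *Orai3* overlapping, and there *Orai2* and *Itpr3* overlapped too. In the Fluo-4 abnormal fibers *Itpr1* at 9.18 ± 1.26 TPM stood above *Orai3* at 7.74 ± 0.900 TPM, with overlapping ranges, and *Stim2* at 17.6 ± 2.46 TPM no longer overlapped *Orai3*.

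**Figure D1:**
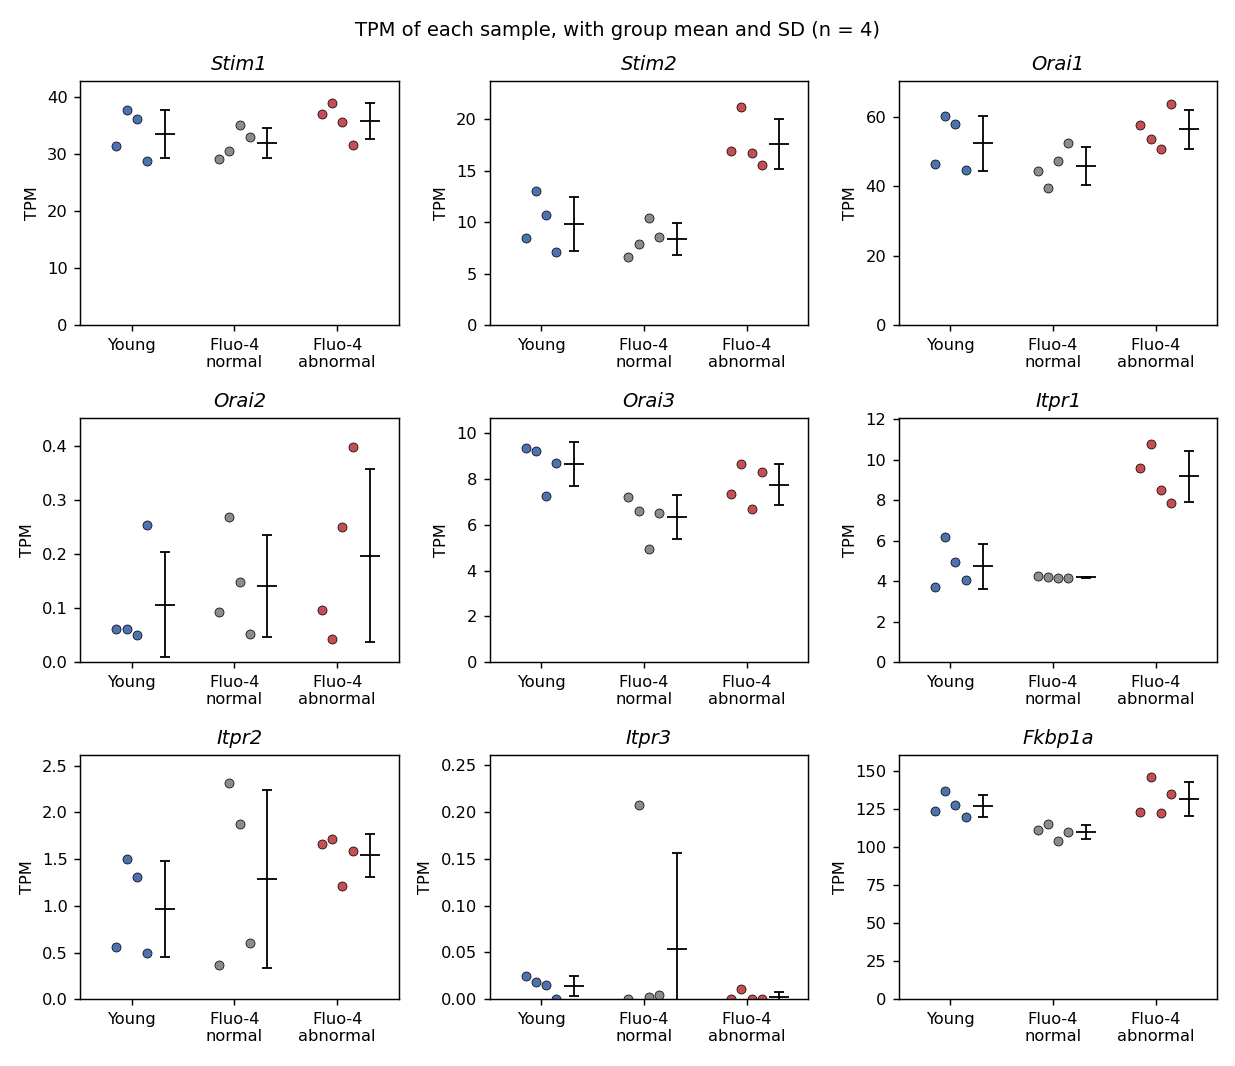
TPM (vertical axes, each from 0) of the 9 genes in the 4 samples of each group (points), with the group mean and SD beside them. The 4 Fluo-4 abnormal samples lie above all 8 other samples for *Stim2* and *Itpr1*, and above the Fluo-4 normal samples for *Fkbp1a*.

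The calcium sensor *Stim2* (chromosome 5, 54155778 to 54278399 on GRCm39) encodes the STIM protein that responds to small falls in store calcium. It was at 8.46, 13.1, 10.7 and 7.09 TPM in the Young samples, at 6.65, 7.86, 10.4 and 8.61 TPM in the Fluo-4 normal samples and at 16.9, 21.2, 16.7 and 15.6 TPM in the Fluo-4 abnormal samples. The lowest Fluo-4 abnormal sample stood above the highest of the 8 other samples. The mean was 2.10-fold that of the Fluo-4 normal fibers, with 2.55, 2.70, 1.61 and 1.81-fold between samples of the same number. On the log2(TPM + 1) scale, which understates the change of low genes, the difference was 0.99 (standard error 0.17; limma adjusted p = 0.0046). Against Young fibers the fold of means was 1.79 and the difference 0.80 (standard error 0.17; limma adjusted p = 0.013).

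*Stim1* (chromosome 7, 101916979 to 102086526), which encodes the main STIM protein of muscle, did not pass the test. It was at 31.4, 37.9, 36.2 and 28.8 TPM in Young, at 29.2, 30.5, 35.1 and 33.0 TPM in Fluo-4 normal and at 37.0, 39.1, 35.6 and 31.6 TPM in Fluo-4 abnormal samples. The 3 groups overlapped. Between the aged groups the difference was 0.16 (95% interval -0.06 to 0.38; limma adjusted p = 0.35), an interval that leaves out a rise of the size seen in *Stim2*, and it turned to -0.03 when samples were rescaled with TMM-type factors. The *Stim2* share of the summed STIM RNA was 22.4% ± 2.5 in Young and 20.6% ± 1.7 in Fluo-4 normal fibers but 32.9% ± 1.7 in Fluo-4 abnormal fibers. Every Fluo-4 abnormal sample had 31.4% or more, and no other sample had more than 25.6%. The ratio of *Stim1* to *Stim2* was accordingly 1.84 to 2.19 in the Fluo-4 abnormal samples and 2.90 to 4.39 in the rest. Such a share is set within a sample, so rescaling a sample as a whole leaves it as it is. The genes differ in GC content, at 47.4% for *Stim2* and 55.1% for *Stim1*, and with a length and GC trend removed from each sample *Stim2* differed by 0.74 between the aged groups (limma adjusted p = 0.0039) and *Stim1* by -0.12 (limma adjusted p = 0.42).

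Among the ORAI channels, *Orai1* (chromosome 5, 123153043 to 123168535), the pore subunit of the main store-operated channel, predominated. It made up 85.5% ± 2.8 of the summed ORAI RNA in Young, 87.5% ± 2.4 in Fluo-4 normal and 87.6% ± 1.1 in Fluo-4 abnormal fibers. Its levels were 46.4, 60.2, 58.0 and 44.5 TPM in Young, 44.5, 39.3, 47.2 and 52.4 TPM in Fluo-4 normal and 57.5, 53.7, 50.6 and 63.6 TPM in Fluo-4 abnormal samples. The aged groups overlapped by 1 Fluo-4 abnormal sample, and the difference of 0.29 (95% interval 0.04 to 0.54) did not pass the test (limma adjusted p = 0.13). When replicate numbers entered the fit as a block, *Orai1* passed at the same difference (limma adjusted p = 0.042). With TMM-type factors the difference was 0.10 with the block and without it (limma adjusted p = 0.54 and 0.72).

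*Orai3* (chromosome 7, 127368982 to 127374330), a channel subunit found in mammals only, was at 9.36, 9.22, 7.26 and 8.70 TPM in Young, 7.21, 6.61, 4.95 and 6.52 TPM in Fluo-4 normal and 7.35, 8.65, 6.67 and 8.29 TPM in Fluo-4 abnormal samples. Each Fluo-4 normal sample was below every Young sample, by a narrow gap. The difference of -0.40 between these groups (95% interval -0.69 to -0.11) did not pass (limma adjusted p = 0.19), and neither did the 0.26 between the aged groups (limma adjusted p = 0.25). *Orai2* was at 0.043 to 0.397 TPM over the 12 samples. Its transcript has a near-identical copy at chr16:59277947-59281153 within the gene *Gabrr3*, 98.8% identical over 79.2% of the transcript, so reads of this gene could have been split or dropped, and its low level is uncertain.

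The IP3 receptor gene *Itpr1* (chromosome 6, 108190048 to 108528070), whose product is the predominant IP3 receptor of neurons, was the receptor with the most RNA in these fibers. It was at 3.71, 6.19, 4.96 and 4.06 TPM in the Young samples, at 4.24, 4.19, 4.17 and 4.19 TPM in the Fluo-4 normal samples and at 9.57, 10.8, 8.51 and 7.89 TPM in the Fluo-4 abnormal samples. As for *Stim2*, the Fluo-4 abnormal samples lay above all others. The mean was 2.19-fold that of Fluo-4 normal fibers, and samples of the same number differed 2.26, 2.57, 2.04 and 1.89-fold. The log2 difference was 0.96 (standard error 0.15; limma adjusted p = 0.0028). Against Young fibers the mean was 1.94-fold higher and the log2 difference 0.84 (standard error 0.15; limma adjusted p = 0.0047). The *Itpr1* transcript is long, at 9876 bases, and with the length and GC trend removed the difference between the aged groups was 0.59 (limma adjusted p = 0.039). The SD among the 4 Fluo-4 normal samples was 0.737% of their mean, against 23.4% in Young and 13.8% in Fluo-4 abnormal samples. Noncoding genes overlap *Itpr1* on the other strand, and of those listed the highest, *Gm44040*, reached 3.25 TPM with 108 exonic bases shared. The libraries do not record the strand, so these reads cannot be told apart.

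*Itpr2* (chromosome 6, 146009797 to 146403721), the receptor known from heart and liver, was at 0.557, 1.50, 1.31 and 0.501 TPM in Young, 0.371, 2.31, 1.88 and 0.601 TPM in Fluo-4 normal and 1.66, 1.72, 1.21 and 1.58 TPM in Fluo-4 abnormal samples. In the Young and Fluo-4 normal groups, replicates 2 and 3 were high and replicates 1 and 4 low, and the group ranges overlapped. The difference of 0.24 between the aged groups had a 95% interval of -0.34 to 0.82 (limma adjusted p = 0.60). *Itpr3* was listed at 0 in 5 of 12 samples and reached 0.207 TPM in 1. It passed the filter on low values through that sample, and it shares 444 exonic bases with *Uqcc2*, a gene on the other strand at up to 830 TPM. The summed IP3 receptor RNA was 5.71 ± 1.60 TPM in Young, 5.54 ± 1.01 TPM in Fluo-4 normal and 10.7 ± 1.41 TPM in Fluo-4 abnormal fibers. *Itpr1* made up 83.7% ± 4.8, 77.7% ± 14.2 and 85.6% ± 1.8 of it. Even so, the ratio of *Itpr1* to *Ryr1* RNA, the latter encoding the main release channel of muscle, was only 0.036 to 0.044 in Young, 0.039 to 0.061 in Fluo-4 normal and 0.045 to 0.094 in Fluo-4 abnormal samples.

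**Figure D2:**
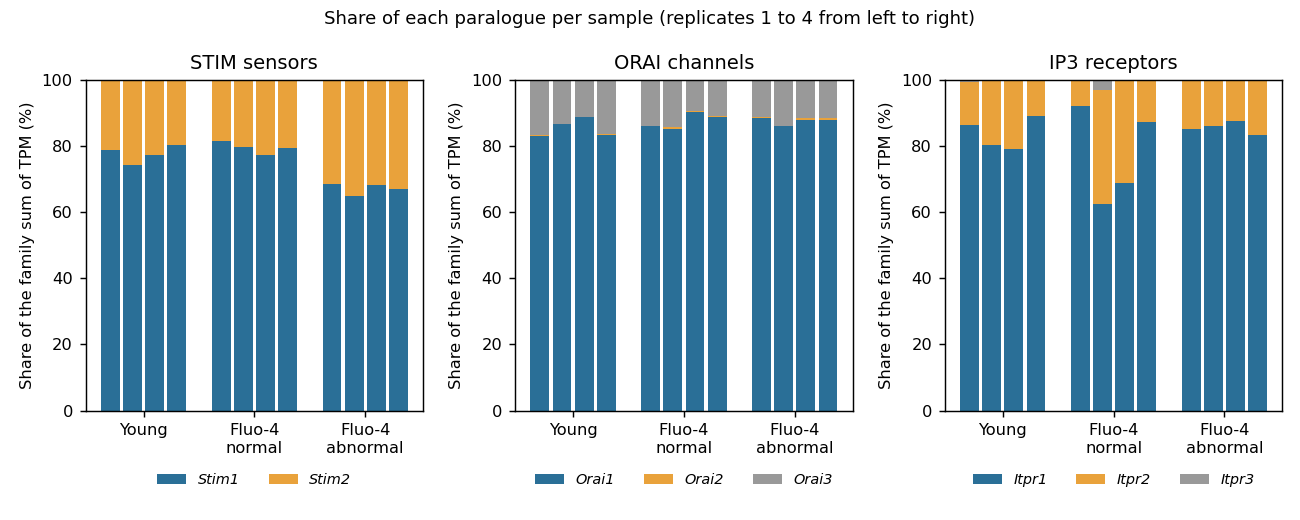
Share of each paralogue (vertical axis, percent) in the summed TPM of the STIM, ORAI and IP3 receptor genes, 1 bar per sample. *Stim2* takes 31.4% to 35.2% of the STIM sum in the Fluo-4 abnormal samples and 18.6% to 25.6% in the others, whereas the *Orai1* share is 83.1% to 90.3% in all samples.

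*Fkbp1a* (chromosome 2, 151384382 to 151404651) was at 123, 136, 127 and 119 TPM in Young, 111, 115, 104 and 110 TPM in Fluo-4 normal and 123, 146, 122 and 135 TPM in Fluo-4 abnormal samples. The Fluo-4 normal group was the lowest and overlapped neither of the others. The mean of the Fluo-4 abnormal fibers was 1.20-fold that of the Fluo-4 normal fibers, a log2 difference of 0.25 (standard error 0.07; limma adjusted p = 0.041). With TMM-type factors the difference was 0.06 (limma adjusted p = 0.76), and the call was lost in 17 of 26 alternatives. Among these were the fits without Young replicate 1 or 3, without any 1 of the 4 Fluo-4 normal samples and without Fluo-4 abnormal replicate 2 or 4, with limma adjusted p of 0.056 to 0.12. The difference between Fluo-4 normal and Young fibers was -0.20 (95% interval -0.35 to -0.05; limma adjusted p = 0.21), and between Fluo-4 abnormal and Young fibers 0.05 (limma adjusted p = 0.72).

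Between Fluo-4 abnormal and Fluo-4 normal fibers, 3 of 9 genes passed the test, all higher, where 9.35% of all genes tested passed and 7.36% passed as higher. The groups did not overlap for the same 3 genes, all higher, against 14.0% of all genes and 11.5% as higher. Between Fluo-4 abnormal and Young fibers, 2 of 9 passed, both higher, against 8.50% of all genes and 6.09% as higher, and these 2 also did not overlap, against 16.2% and 12.2% as higher. Between Fluo-4 normal and Young fibers 0 of 9 passed in limma, against 1.14%, and 2 of 9, *Orai3* and *Fkbp1a*, had an unadjusted p under 0.05, against 12.9% of all genes. For these 2 the groups did not overlap, both lower, against 7.98% of all genes and 4.96% as lower. With the filter at 5 TPM, 3 of 6 genes passed between the aged groups and 2 of 6 between Fluo-4 abnormal and Young fibers, all higher. Of all 6348 genes at that filter, 26.9% and 21.1% passed, 1419 and 962 genes as higher. The comparisons share groups, so their results are not independent.

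A general shift lay under these differences. The median of the 6348 genes with at least 5 TPM in some group was 0.20 higher on the log2 scale in Fluo-4 abnormal than in Fluo-4 normal fibers, and 0.02 after TMM-type factors. With those factors the calls over all genes changed from 1062 higher and 287 lower to 368 higher and 478 lower. Relative to the median, *Stim2* was higher by 0.79 and *Itpr1* by 0.76, whereas *Orai1*, *Orai3*, *Fkbp1a* and *Stim1* stood at 0.09, 0.06, 0.05 and -0.05. Against Young fibers, where the median was 0.12, *Stim2* and *Itpr1* were higher by 0.68 and 0.72 relative to it. *Stim2* and *Itpr1* passed the test between the aged groups in 25 of 26 alternatives, with differences of 0.74 to 1.09 and 0.59 to 1.10. The exception combined the replicate block with the *Myh4* share of each sample as a covariate, where the differences were 1.08 and 0.91 (limma adjusted p = 0.10 and 0.15) and 33 of 14131 genes passed in all.

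**Figure D3:**
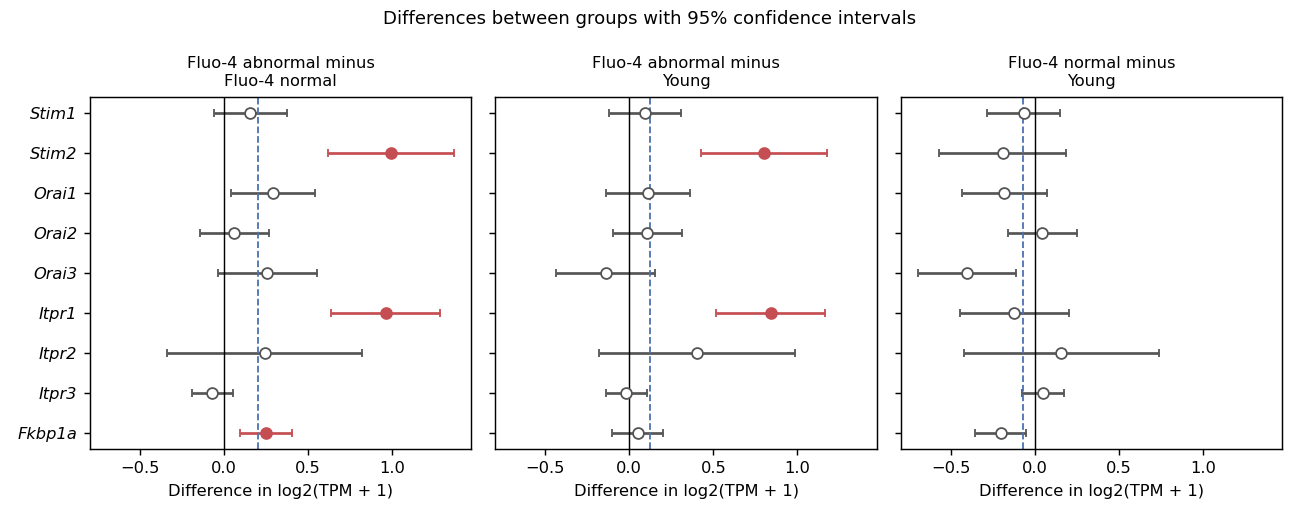
Differences in log2(TPM + 1) (horizontal axes) for the 9 genes in the 3 comparisons, with 95% confidence intervals. Filled red points passed at an adjusted p under 0.05, and the dashed line is the median of genes with at least 5 TPM, at 0.20, 0.12 and -0.07. Intervals of *Stim2* and *Itpr1* against either group lie wholly right of both lines in the first 2 panels, whereas that of *Fkbp1a* includes the dashed line. *Stim1* has the opposite sign after rescaling.

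**Figure D4:**
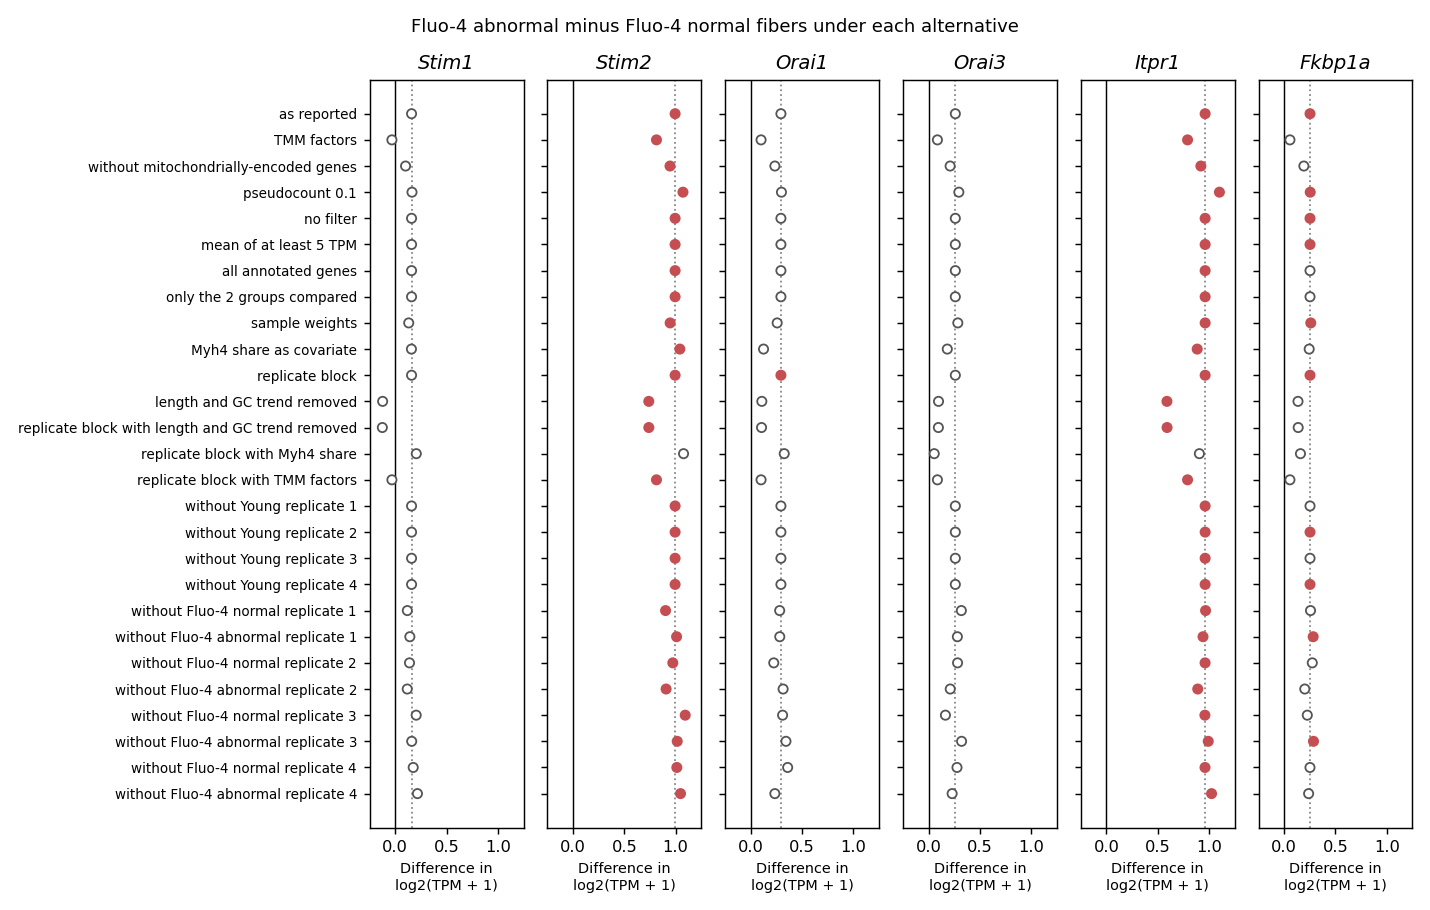
Difference in log2(TPM + 1) between Fluo-4 abnormal and Fluo-4 normal fibers (horizontal axes) for 6 genes as reported and under 26 alternatives (rows), with filled red points where the adjusted p was under 0.05 and a dotted line at the reported value. *Stim2* and *Itpr1* are filled in all rows but 1, *Fkbp1a* in 9 of the 26 alternatives, and *Stim1* crosses 0 in 4.

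Some measures of the fibers moved with the groups. *Myh4*, the myosin of the fastest fibers, made up 98.9% to 99.7% of the 4 adult myosin heavy chains in Fluo-4 abnormal, 93.7% to 99.2% in Fluo-4 normal and 96.9% to 98.6% in Young samples. Mitochondrially-encoded RNA took 4.75% to 6.92%, 8.75% to 10.9% and 7.35% to 8.01% of the TPM. The fiber markers *Acta1* and *Ckm* were abundant in all samples, and all 8 fiber markers were above 0 in each group. The summed level of these 8 was 83431 to 97768 TPM in Fluo-4 abnormal, 66573 to 82167 TPM in Fluo-4 normal and 80723 to 83454 TPM in Young samples, so the aged groups did not overlap. The summed level of 7 immune markers was 2.84 to 5.83 TPM in Fluo-4 abnormal, 1.02 to 2.37 TPM in Fluo-4 normal and 0.904 to 1.98 TPM in Young samples. Of these markers *Itgam* was at 0 in all samples, *Ptprc*, the defining marker, was at most 0.262 TPM, and *Cd3e* alone gave 2.10 to 4.86 TPM in Fluo-4 abnormal samples. The summed levels of endothelial, fibroblast, erythroid, satellite, Schwann and smooth muscle cell markers overlapped between the aged groups. Of the 4 adipocyte markers, *Adipoq*, *Plin1* and *Lep* were at 0 throughout. The remaining marker, *Cfd*, was at 2.77 and 0.144 TPM in Fluo-4 normal replicates 2 and 3 and at 0 in all other samples. Fluo-4 normal replicate 2 had the most endothelial, fibroblast and erythroid marker RNA (26.1, 78.8 and 482 TPM), and without it *Stim2* and *Itpr1* differed by 0.97 and 0.96 between the aged groups. After rescaling without mitochondrially-encoded genes the differences were 0.94 and 0.92 (limma adjusted p = 0.0073 and 0.0043). With the *Myh4* share as covariate they were 1.04 and 0.88 (limma adjusted p = 0.040 for each). The part of the immune and fiber marker levels in these differences was not tested. In pooled fiber RNA, fewer cells of a type and less RNA per cell cannot be told apart.

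The regulators of store-operated entry were examined as 19 other genes, of which 17 were tested. Between the aged groups 6 rose and 1 fell, against 7.36% and 1.99% of all genes, with a median difference of 0.27 over the 17, against 0.10 over all genes tested. With TMM-type factors 3 of these 6, *Jph1*, *Jph2* and *Esyt1*, passed as higher, *Homer2* and *Cracr2b* passed as lower (*Cracr2b* at -0.90, limma adjusted p = 0.034), and the median was 0.08. Without those factors and with the filter at 5 TPM, the median was 0.40 over 11 genes of the list, against 0.20 over 6348 genes. The risers were the junctophilins *Jph1* and *Jph2*, which tie the SR to the transverse tubules, *Casq1*, which encodes the calcium buffer of the SR, *Esyt1*, a tether of the endoplasmic reticulum to the surface membrane, *Asph*, whose products include junctin and junctate, and *Sypl2*, which encodes mitsugumin-29. *Jph1* was at 55.3, 69.1, 77.4 and 69.1 TPM in Fluo-4 normal and 93.1, 123, 114 and 103 TPM in Fluo-4 abnormal samples, a difference of 0.67 (standard error 0.11; limma adjusted p = 0.0033), and was 80.7 TPM on average in Young. *Jph2* was at 70.2, 74.2, 75.4 and 73.2 TPM against 101, 123, 111 and 97.8 TPM (0.55, standard error 0.10; limma adjusted p = 0.0054), and its mean of 108 TPM was near the 110 TPM of Young fibers, from which Fluo-4 normal fibers had fallen (-0.57; limma adjusted p = 0.016). *Casq1* rose by 0.50 (limma adjusted p = 0.0017) and was likewise lowest in Fluo-4 normal fibers, at 2284 TPM against 3238 TPM in Fluo-4 abnormal and 3665 TPM in Young fibers. With TMM-type factors it did not pass between the aged groups (0.31; limma adjusted p = 0.15). *Sypl2* was at 99.0 TPM in Fluo-4 normal, 120 TPM in Fluo-4 abnormal and 144 TPM in Young fibers. It passed as lower in Fluo-4 abnormal than in Young fibers (-0.26, limma adjusted p = 0.021). *Asph* did not pass there (limma adjusted p = 0.94), whereas *Esyt1* and *Jph1* passed as higher than in Young fibers (0.82 and 0.41, limma adjusted p = 0.0065 and 0.033).

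The 1 gene of this list that fell was *Homer2*, a scaffold that binds IP3 receptors, ryanodine receptors and TRP channels. It was at 7.41, 9.28, 9.32 and 6.22 TPM in Fluo-4 normal and 3.33, 2.65, 2.75 and 2.26 TPM in Fluo-4 abnormal samples, with 6.58 TPM on average in Young. The difference was -1.26 between the aged groups (standard error 0.17; limma adjusted p = 0.0014), and it also fell against Young fibers (limma adjusted p = 0.0040). The Fluo-4 abnormal samples lay under all 8 others. *Saraf*, which encodes an inhibitor of STIM1, was at 183 TPM in Young, 207 TPM in Fluo-4 normal and 230 TPM in Fluo-4 abnormal fibers. It rose against Young fibers (0.33; limma adjusted p = 0.014) and did not pass between the aged groups (0.15; limma adjusted p = 0.21). *Trpc6* and *Cracr2a* were at or near 0 and were not tested.

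In the list of 31 genes that make or remove IP3 or bind its receptors, 30 were tested, 5 rose and 0 fell between the aged groups, against 7.36% and 1.99% of all genes. The median difference of 0.04 over the 30 lay below the 0.10 over all genes tested. With the filter at 5 TPM it lay above, at 0.40 over 8 genes of the list, against 0.20 over 6348 genes. With TMM-type factors 2 of the 5, *Plcd4* and *Inpp5a*, passed, and *Tmem203*, which encodes a membrane protein of the endoplasmic reticulum, passed as lower (-0.42, limma adjusted p = 0.040). The risers were *Plcd4*, a phospholipase C that makes IP3, *Inpp5a*, a phosphatase that removes it, *Rnf170*, a ubiquitin ligase that marks IP3 receptors for degradation, *Erp44*, a lumenal protein that binds and inhibits the receptor of *Itpr1*, and *Gnaq*, a G protein subunit that activates phospholipase C. *Plcd4* was at 40.7, 45.9, 46.7 and 48.1 TPM in Fluo-4 normal and 76.4, 76.6, 63.3 and 80.7 TPM in Fluo-4 abnormal samples (0.70, standard error 0.09; limma adjusted p = 0.00073). Its Young mean was 68.8 TPM, and Fluo-4 normal fibers were below it by -0.59 (limma adjusted p = 0.0060). *Inpp5a* was at 29.0, 35.4, 37.6 and 36.4 TPM against 45.5, 51.6, 51.2 and 50.2 TPM (0.51, standard error 0.10; limma adjusted p = 0.0097). *Rnf170* and *Erp44* rose by 0.43 and 0.37 (limma adjusted p = 0.016 and 0.029), against 0.24 and 0.19 with TMM-type factors. *Gnaq* was low, at 0.638 TPM in Fluo-4 normal and 1.30 TPM in Fluo-4 abnormal fibers. Between the aged groups, the genes that rose thus included both a source and a remover of IP3, and 2 genes known to restrain its receptors. Between Fluo-4 abnormal and Young fibers, 0 of the 30 genes passed as higher and 1, *Tmem203*, as lower (-0.55, limma adjusted p = 0.025). *Plcd4*, *Inpp5a*, *Rnf170*, *Erp44* and *Gnaq* differed there by 0.11, 0.29, 0.17, -0.03 and 0.35 (limma adjusted p = 0.10 to 0.87). In Fluo-4 normal against Young fibers, *Rnf170* and *Erp44* differed by -0.26 and -0.41 (limma adjusted p = 0.25 and 0.064).

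Of 15 other FKBP and ryanodine receptor genes, 14 were tested, and 2 rose and 0 fell between the aged groups, against 7.36% and 1.99% of all genes, with a median difference of 0.14 against 0.10. *Ryr1* was at 69.8, 95.5, 107 and 85.8 TPM in Fluo-4 normal and 102, 199, 191 and 118 TPM in Fluo-4 abnormal samples (0.72, standard error 0.21; limma adjusted p = 0.047), with replicates 2 and 3 high in both groups. The ranges of these 2 groups overlapped. Young samples were at 98.7 to 140 TPM, and *Ryr1* did not pass between Fluo-4 abnormal and Young fibers (0.30, limma adjusted p = 0.44). *Fkbp9*, which encodes a prolyl isomerase of the endoplasmic reticulum, was at 26.4, 23.2, 24.5 and 29.5 TPM against 33.2, 40.8, 37.2 and 36.6 TPM (0.50, standard error 0.09; limma adjusted p = 0.0054). The *Ryr1* call was lost without any 1 of the Young samples, without Fluo-4 normal replicate 1, 2 or 4 and without Fluo-4 abnormal replicate 2 or 3 (limma adjusted p = 0.054 to 0.14). Both calls were lost with TMM-type factors (0.52 and 0.31; limma adjusted p = 0.11 for each), whereas with the replicate block added to those factors *Ryr1* passed (limma adjusted p = 0.034), and *Fkbp3* and *Fkbp7* passed as lower (-0.36 and -0.88, limma adjusted p = 0.028 and 0.013). *Fkbp15* and *Fkbp8* did not pass between the aged groups (0.49 and 0.23, limma adjusted p = 0.12 and 0.14). Between Fluo-4 abnormal and Young fibers 3 of the 14 genes passed, all higher, against 6.09% of all genes. These were *Fkbp9*, *Fkbp2* and *Fkbp11* (limma adjusted p = 0.025, 0.039 and 0.049). With TMM-type factors 0 of the 14 passed there as higher and 1 as lower. *Fkbp1b*, which encodes the FKBP12.6 of the heart and is the closest relative of *Fkbp1a*, was at 0.096 TPM or less in every sample, and *Ryr2*, the ryanodine receptor of the heart, was listed at 0 in all. The ratio of *Fkbp1a* to *Ryr1* was 0.923 to 1.21 in Young, 0.975 to 1.59 in Fluo-4 normal and 0.638 to 1.21 in Fluo-4 abnormal samples, and these ranges overlapped.

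**Figure D5:**
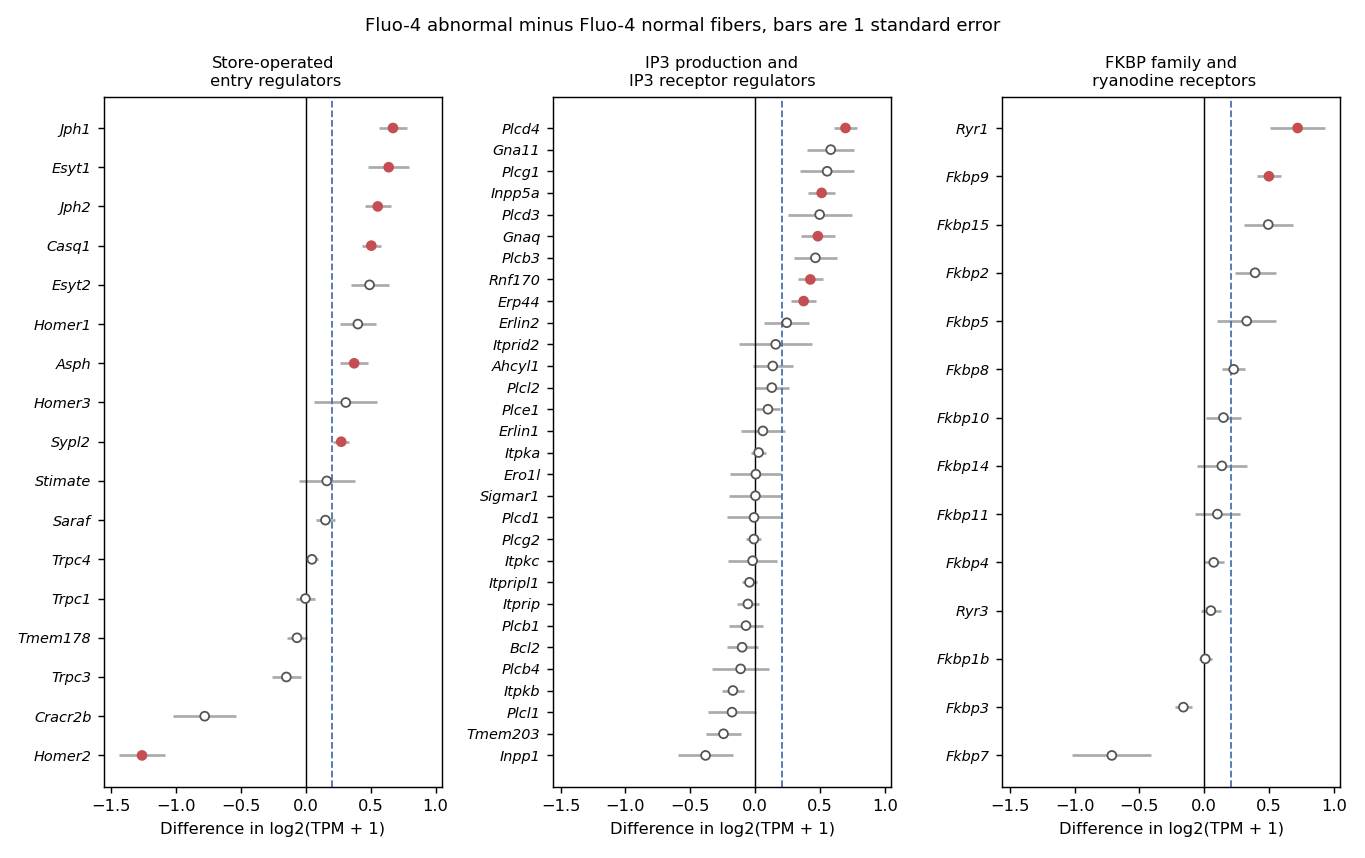
Difference in log2(TPM + 1) between Fluo-4 abnormal and Fluo-4 normal fibers (horizontal axes) for the tested genes of the 3 lists, with 1 standard error as bars. Filled red points passed at an adjusted p under 0.05, and the dashed line is the median of genes with at least 5 TPM, at 0.20. Of the filled points, 13 lie right of 0 and *Homer2* alone lies left, at -1.26.

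Among the 6326 other protein-coding genes of the nucleus with at least 5 TPM in some group (6327 for *Itpr2*, which did not reach it), those whose log2 values ran closest to each gene were listed by Pearson correlation over the 12 samples. Such values can rest in part on the group differences, so the correlation of the deviations from the group means is given second. *Stim2* ran with *Eya4* (r = 0.973, within groups 0.896), *Srpk3* (0.973 and 0.898) and *Map1b* (0.964 and 0.834). *Eya4* was at 5.37 TPM in Fluo-4 normal and 12.0 TPM in Fluo-4 abnormal fibers, and *Map1b* at 1.62 and 5.64 TPM. *Itpr1* ran with *Prnp* (0.959 and 0.720), *Snx5* (0.954 and 0.538) and *Stim2* itself (0.950 and 0.763). Among the closest genes were *Vamp4* (0.935 and 0.918) and *Mia3* (0.907 and 0.903) for *Stim1*. For *Orai1* they were *Rnf4* (0.966 and 0.959), *Snx6* (0.962 and 0.954) and *Mtap* (0.915 and 0.863). They were *Atpsckmt* (0.913 and 0.857), *Ndfip2* (0.861 and 0.807) and *Fcgrt* (0.861 and 0.665) for *Orai3*. *Itpr2* ran with *Eif1a* (0.917 and 0.904), *Iws1* (0.907 and 0.913) and *Jund* (0.907 and 0.899). *Fkbp1a* ran with *Mapk6* (0.953 and 0.881), *Lancl1* (0.951 and 0.858) and *Gnl1* (0.947 and 0.874). Within groups *Stim1* and *Stim2* ran together at 0.947, more closely than any other pair of the 7 genes compared, whereas *Stim1* and *Orai1* reached 0.485. These samples share depth, scaling and RNA input differences, which enter every such value.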

How the data were processed

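RNA of isolated EDL fibers was sequenced by the study from 12 samples (10 ng of total RNA each, SMART-Seq v4, unstranded). The authors used DRAGEN 4.3 for alignment to GRCm39 and quantification, and deposited TPM values in 1 table per sample; counts and depth were not used here, and the precision rests on 4 samples a group. Values on 114 symbols with several lines were summed. Protein-coding and mitochondrially-encoded genes with a mean of at least 0.02 TPM in 1 group or more were tested on log2(TPM + 1) with limma 3.58.1 (R 4.3.3), 1 fit of 3 groups with a variance trend, Benjamini-Hochberg adjustment over all 14429 genes and a threshold of 0.05. The fit was tested on simulated data. Groups came from the labels. The genes, lists, rules and tests were chosen with earlier results of these data known. The text names the 9 genes, the 3 genes most correlated with each one reaching 1 TPM, and the 4 smallest p of each list, apart from 1 gene that is not reported here; other list genes are named to complete a count or because their levels had been seen.

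Other settings were sample factors computed as in TMM, trimmed by 30% and 5%, rescaling without mitochondrially-encoded genes, a pseudocount of 0.1, no filter or 5 TPM, all annotated genes, the 2 groups alone, sample weights, the *Myh4* share as covariate, a replicate block and leaving out each of 12 samples. Added after seeing the data were removal of a length and GC trend from genes with at least 5 TPM (splines, 5 degrees of freedom each) and the block combined with the trend, the *Myh4* share or TMM-type factors. Aged samples share replicate numbers, and the sources used here do not say what a number marks. Deviations from group means of same-numbered aged samples correlated at 0.44, 0.37, 0.43 and 0.30 over 5994 genes, against -0.36 to 0.23 for different numbers, so they were treated as paired in the block. Gene positions are from GENCODE M39. Near-identical copies were sought with BLAST 2.17.0 (95% identity over at least 100 bases). Promoters are from RefSeq (GRCm38.p6). Python 3.11.15 (numpy 2.4.6, pandas 2.3.3) was used for tables, and matplotlib 3.10.9 for figures.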

Additional observations from a re-analysis of the deposited data

Results flagged for a closer look

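For 3 values, 1 sample stood far from the other 3 of its group by Dixon's ratio, out of 27 groups examined (9 genes in 3 groups). Chance flags about 1 in 20 groups of normally spread values, a rate that need not hold for values at or near 0. *Orai2* was at 0.253 TPM in Young replicate 4 and at 0.051 to 0.062 TPM in the other Young samples. *Itpr3* was at 0.207 TPM in Fluo-4 normal replicate 2 and at 0 to 0.005 TPM in the other Fluo-4 normal samples. *Itpr3* was at 0.011 TPM in Fluo-4 abnormal replicate 2 and listed at 0 in the other Fluo-4 abnormal samples, where any value above 0 would have been flagged. All 3 values are of genes under 0.4 TPM in every sample, and Fluo-4 normal replicate 2 is the sample with the most endothelial, fibroblast and erythroid marker RNA.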

How the results depend on the processing

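Over the 9 genes in 3 comparisons, 617 values under alternatives were computed, of which 575 kept direction and side of the threshold, 19 lost a call, 1 gained one and 22 reversed in sign. No reversal concerned a call, and none had an adjusted p under 0.05 in limma. Alternatives that excluded a low gene gave no value for it. Of the 19 lost calls, 17 were of *Fkbp1a* between the aged groups, and the others were *Stim2* and *Itpr1* there in the fit with the block plus the *Myh4* share as covariate. The cause of these changes was not tested. In that fit 0 of the 9 genes and 0 of each list passed. The replicate block alone gave 4 of 9 calls, adding *Orai1*, and changed no other call among the 9 genes.

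Counts of list genes called between the aged groups also moved, in 18 of 26 alternatives for the FKBP and ryanodine receptor genes, 11 for the IP3 genes and 4 for the store-operated entry regulators. Of the FKBP and ryanodine receptor genes, 0 passed with TMM-type factors, the *Myh4* share or the length and GC trend removed, and 1 without mitochondrially-encoded genes, without the filter, over all annotated genes, with the 2 groups alone, with sample weights and with the block and trend removed. With the block alone 3 of them passed (2 higher, 1 lower), and 3 with the block and TMM-type factors (1 higher, 2 lower), while the 1 with the block and trend removed was *Fkbp7*, lower. Of the IP3 genes, 3 passed with TMM-type factors with or without the block, without mitochondrially-encoded genes and with the trend removed, and 2 with the 2 groups alone and with the block and trend removed. Of the store-operated entry regulators, 3 passed with the trend removed and 4 with the block added. With the filter at 5 TPM, 2 of 8 FKBP and ryanodine receptor genes and 5 of 8 IP3 genes passed, all higher. At that filter 9 of 11 store-operated entry regulators passed, 8 higher and 1 lower, and 26.9% of all 6348 genes passed. Leaving out 1 sample gave 1 to 3, 2 to 5 and 4 to 8 calls in these lists, and 2 to 3 among the 9 genes. Without Fluo-4 abnormal replicate 2 the counts were 1, 2 and 4 of the lists; the IP3 count was 3 without Fluo-4 abnormal replicate 1 or 3 or Fluo-4 normal replicate 4, and the first count was 1 without any 1 of the Young samples, Fluo-4 normal replicate 2 or 4 or Fluo-4 abnormal replicate 3.

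Between the aged groups, *Stim1* turned to -0.033 with TMM-type factors (with and without the block) and to -0.12 and -0.13 with the trend removed, without and with the block. Against Young, Fluo-4 abnormal fibers turned to -0.05 and -0.08 (*Stim1*), -0.035 and -0.0063 (*Orai1*) and -0.10 and -0.049 (*Fkbp1a*) with TMM-type factors and the trend removed. Fluo-4 normal fibers turned to 0.04 (*Stim1*) and 0.027 (*Itpr1*) against Young with the trend removed. With the *Myh4* share, *Orai2* turned to -0.014 and *Itpr2* to -0.11 between Fluo-4 normal and Young fibers. *Itpr3* turned to 0.045 between the aged groups (0.043 with the block), 0.041 against Young and -0.0045 between Fluo-4 normal and Young fibers. Single left-out samples reversed *Orai2* (-0.014 to 0.126 between the aged groups, -0.0084 to 0.105 between Fluo-4 normal and Young), *Itpr2* (-0.052 to 0.372 there) and *Fkbp1a* (-0.0014 to 0.086 between Fluo-4 abnormal and Young fibers). These were Fluo-4 abnormal replicate 4 and Fluo-4 normal replicate 2 for *Orai2*, Fluo-4 normal replicate 2 for *Itpr2* and Fluo-4 abnormal replicate 2 for *Fkbp1a*.

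The values carry no read depth, so genes under 1 TPM cannot be given a counting error, and TPM values of a sample depend on one another.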
